A study of Mus musculus with 12 samples.

Results

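The genes described here encode apolipoproteins, the protein components of lipoprotein particles, and the lipid transfer protein that loads lipid onto one of them. The 10 genes listed were *Apoa1*, *Apoa2*, *Apoa4*, *Apoa5*, *Apob*, *Apoc2*, *Apoc3*, *Apoe*, *Apom* and *Mttp*. Every non-control probe of the array whose RefSeq record belongs to one of them was taken. Of these genes, 9 had a probe, with 11 probes among the 39429 probes of the array, and no probe carried a current RefSeq record of *Apoc2*. All 11 probes were well above background in both dyes on all 12 arrays, and none was saturated.

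The measurements came from the liver of male db/db mice, 8 weeks old, which lack a working leptin receptor and become obese and diabetic; treated and control mice share this genotype. MgH2, a solid that releases H2 in the stomach, was suspended in glycerol and given by gavage once a day for 1, 3 or 7 days (0.9 mg/kg by the sample labels), with Mg(OH)2 as the control. H2-water (0.8 mM) was drunk freely for 14 days, with degassed H2-water as the control. Each of the 12 two-color arrays, 3 per group, compared a treated pool (Cy5) with a control pool (Cy3), and each pool held liver RNA of 3 mice by the study's methods. A log2 ratio above 0 means more RNA in the treated pool. Cy5 marked the treated pool on every array, so a dye effect on a probe and an effect of treatment cannot be told apart by the ratio.

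The liver secretes very-low-density lipoprotein, a particle built around one molecule of apolipoprotein B. The microsomal triglyceride transfer protein, encoded by *Mttp*, adds lipid to apolipoprotein B while it is being made. Apolipoprotein A-I is the main protein of high-density lipoprotein and is made in liver and intestine, whereas apolipoprotein E is a ligand by which receptors take up remnant particles. Apolipoproteins C-II, C-III and A-V govern how fast lipoprotein lipase removes triglyceride from the particles. *Apoa1*, *Apoc3*, *Apoa4* and *Apoa5* are neighbors on chromosome 9 with no other annotated gene start between them, and *Apoe* lies beside *Apoc1*, *Apoc4* and *Apoc2* on chromosome 7.

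RefSeq promoter windows (build GRCm38.p6) matched 9 of the 10 genes, all but *Apoc3*. The windows of *Apoe*, *Apoa1* and *Apob*, the genes on which the results below turn, are shown as the 250 bases before the annotated start, 5′ to 3′ on the gene's strand. *Apoe* has 3 annotated starts, of which the one farthest 5′ is shown. Motifs were searched on both strands, and capitals mark any match. The TATA box was searched as TATAAA, and 12.4% of all 32851 such windows hold it. The letters GGGCGG, those of a GC box, occur in 32.7% of the windows. Those of the box named CCAAT occur in 33.8%. For a nuclear receptor core, AGGTCA, the share is 14%. A core of HNF4 sites was searched as CAAAGTC and occurs in 3.84%. A forkhead core, TGTTTAC, occurs in 3.17%.
Apoe promoter, chr7:19699189-19699438, minus strand: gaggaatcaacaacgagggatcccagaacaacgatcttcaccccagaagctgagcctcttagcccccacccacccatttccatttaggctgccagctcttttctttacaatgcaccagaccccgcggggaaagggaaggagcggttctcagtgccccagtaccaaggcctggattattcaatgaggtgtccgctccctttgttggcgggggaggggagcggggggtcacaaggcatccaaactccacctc
Apoa1 promoter, chr9:46228380-46228629, plus strand: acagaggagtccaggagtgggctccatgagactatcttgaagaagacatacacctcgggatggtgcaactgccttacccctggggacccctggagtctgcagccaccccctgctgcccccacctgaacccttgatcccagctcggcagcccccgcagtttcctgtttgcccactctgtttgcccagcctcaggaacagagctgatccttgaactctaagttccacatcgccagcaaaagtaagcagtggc
Apob promoter, chr12:7977427-7977676, plus strand: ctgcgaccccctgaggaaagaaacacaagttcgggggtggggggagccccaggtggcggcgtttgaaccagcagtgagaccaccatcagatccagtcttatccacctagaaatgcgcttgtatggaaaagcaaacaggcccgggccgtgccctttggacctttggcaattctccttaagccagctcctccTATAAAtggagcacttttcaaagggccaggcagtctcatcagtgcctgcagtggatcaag
The window of *Apob* holds TATAAA, beginning 60 bases before the start, and no other match overlaps it. Neither of the other windows shown holds any of these motifs. The window of the second *Apoe* start, not shown, holds TATAAA on both strands, beginning 100 and 96 bases before that start. These are descriptions of letters in a window and were not related to the measurements.

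*Apoe* RNA was higher in the treated pool on all 12 arrays, by 1.18- to 1.26-fold on average, and it was the only one of the 9 genes called at every time. A gene was called when the probe with its highest signal had an adjusted P under 0.05 in limma's test. Of the probes above background on all arrays, 2.14% were called higher at all 4 times and 7.27% lay above 0 on all 12 arrays. The other calls were few. At 1 day 1 of the 9 genes was called, beside 9.38% of all probes tested, and at 3 days 1 was called, beside 23.4%. At 7 days 2 were called, *Apoe* as higher and *Apob* as lower, beside 29.5%, and at 14 days 1 was called, beside 8.83%. The share of these genes called was thus near or below that of all probes. At 1 day 5 of the 9 genes lay above 0 on all 3 arrays, beside 22% of all tested probes, and at 14 days 5 lay below 0 on all 3, beside 27.7%. The median log2 ratio of the 9 genes was 0.13, 0.08, 0.06 and −0.07 at 1, 3, 7 and 14 days, and that of all tested probes lay between −0.01 and 0.01.

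**Figure D1:**
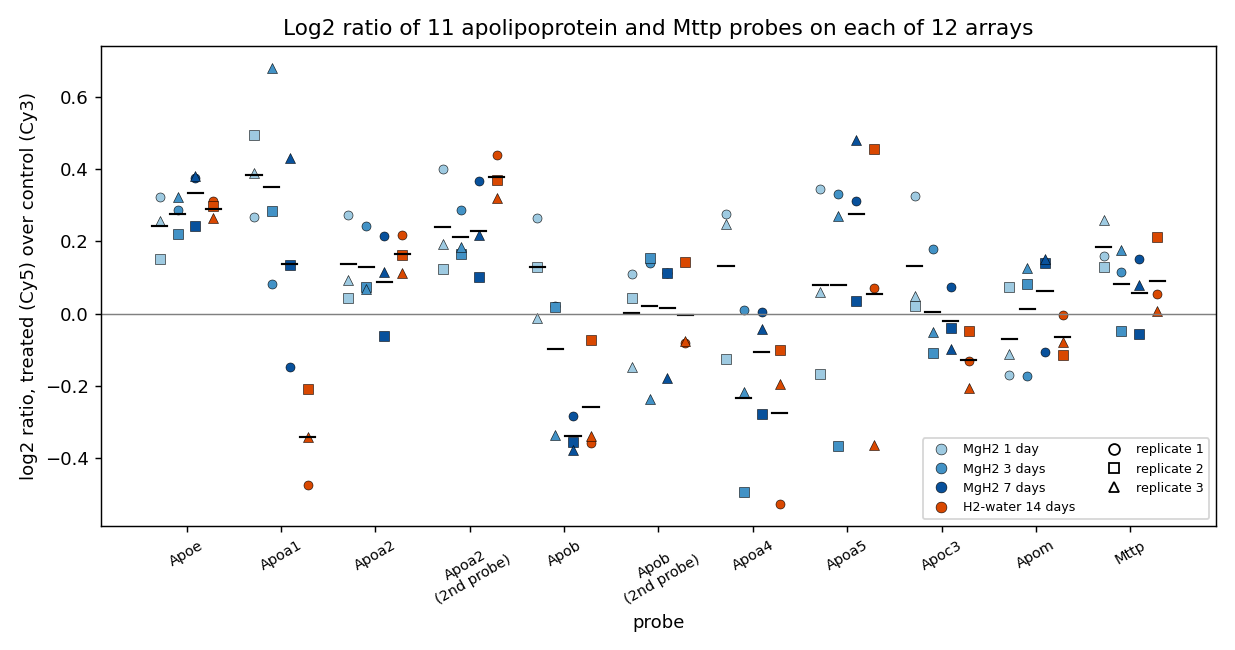
Log2 ratio of treated over control signal (vertical axis) for each of the 11 probes (horizontal axis) on each of 12 arrays; colors give the group, symbols the replicate number and bars the mean of 3 arrays. *Apoe* and the second probe of *Apoa2* lie above 0 on all 12 arrays, and *Apoa1* lies below 0 on the 3 H2-water arrays.

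Before the values are compared across days, the control pools need a description. The labels list a separate control for each MgH2 array, but the control signals of arrays with the same replicate number were closer to each other across days than those of other arrays. The spread of the Cy3 difference between the arrays of a pair was a scaled median absolute deviation, over probes above background on all arrays. It was 0.08 to 0.11 on the log2 scale in the 9 same-number pairs and 0.14 to 0.21 in the 18 other pairs across days. In Cy5 it was 0.13 to 0.25 and 0.12 to 0.27. The control level of *Apoa1*, as log2 signal minus the array's median, was 5.32 on all 3 arrays numbered 1, 5.23 to 5.27 on those numbered 2 and 4.89 to 4.94 on those numbered 3. The 1-, 3- and 7-day ratios therefore appear to share 3 control pools, so their values are given side by side and not as repeats of each other. Differences between MgH2 days were also taken with the replicate number as a block over the 9 MgH2 arrays, an alternative added after this pattern was seen. For a ratio against 0, or a difference from the H2-water arrays, that block leaves out the spread between control pools. Its P values there are small for that reason and are given as descriptions.

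**Figure D2:**
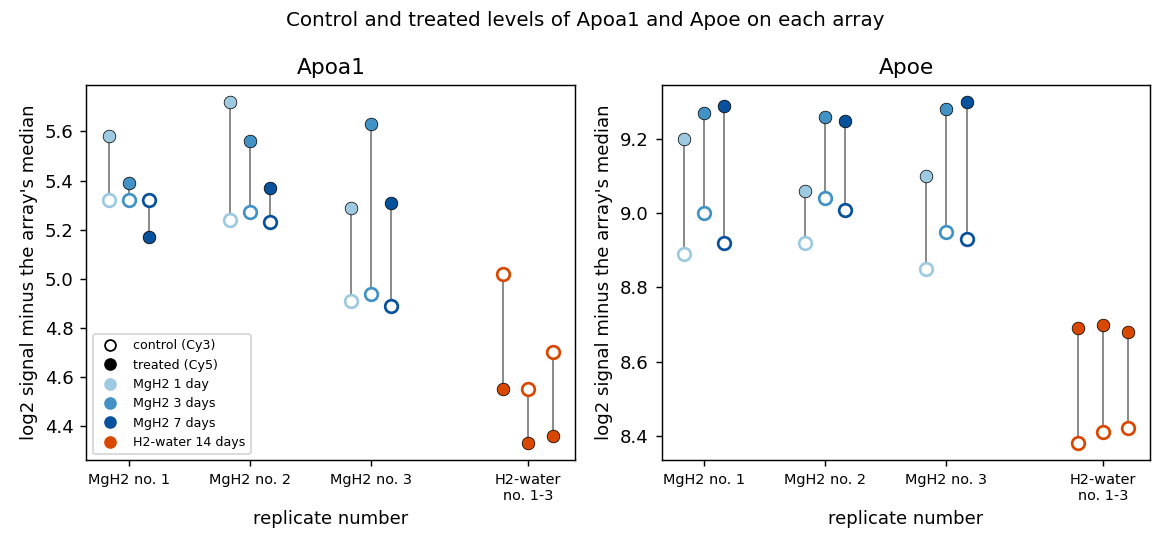
Level in the control (open) and treated (filled) channel, as log2 signal minus the median of that channel (vertical axis), for *Apoa1* and *Apoe* on each array, grouped by replicate number (horizontal axis). The open MgH2 points of *Apoa1* nearly coincide within a number (5.32 for number 1) and differ between numbers, and the filled points of *Apoe* lie above the open ones on all 12 arrays.

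Apolipoprotein E is carried by several classes of lipoprotein and is made by hepatocytes and, to a lesser extent, by macrophages. The log2 ratios of *Apoe* were 0.32, 0.15 and 0.26 at 1 day, 0.29, 0.22 and 0.32 at 3 days, 0.37, 0.24 and 0.38 at 7 days, and 0.31, 0.30 and 0.26 at 14 days. All lay above 0 and the 4 groups overlapped. *Apoe* is printed 10 times on the array, and the SD between its spots within an array was 0.0125 to 0.0302. The SD between arrays was 0.086, 0.0514, 0.0773 and 0.0248 at 1, 3, 7 and 14 days. Each array value is a mean of 7 to 10 spots, so this SD is not directly comparable with that of single spots.

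The mean log2 ratio of *Apoe* was 0.24 ± 0.042 (SE, n = 3 arrays) at 1 day with an adjusted P of 0.0088. It was 0.28 at 3 days (adjusted P = 0.002), 0.33 at 7 days (0.00054) and 0.29 at 14 days (0.0035). The difference between 7 days and 1 day was 0.09 ± 0.06 (SE), with an adjusted P of 0.39. In the treated channel alone that difference was 0.16, with an adjusted P of 0.032. That setting called 3787 of all probes, beside 1332 by the ratio. A single channel compared across arrays also carries differences between arrays and slides. The 1-day call was lost without replicate 1 (0.20, adjusted P = 0.059), and the calls at 1 and 3 days when each group was fitted without the other arrays (adjusted P = 0.21 and 0.073).

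*Apoe* is among the brightest probes of the array, and a ratio at that signal depends on how the dyes are balanced. The 94 probes with a mean signal of at least 100000 had median log2 ratios of 0.08, 0.08, 0.06 and 0.03 at 1, 3, 7 and 14 days, above the medians of all probes. Of these 94 probes, 17, 11, 8 and 6 exceeded *Apoe* at those times, and 11.7% lay above 0 on all 12 arrays. With another background correction and dye normalization (normexp and loess), the medians of the 94 were 0.31, 0.30, 0.27 and 0.17, and *Apoe* was 0.50, 0.53, 0.57 and 0.47. Its ratio thus exceeded the median of its brightness class under both, while its size moved by more than 1.5 times. The part of signal brightness in the *Apoe* ratio was not tested further.

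Cell type markers were called mainly at 3 and 7 days, the times at which the most probes were called. No marker was called at 1 day. Over all tested probes, 9.38%, 23.4%, 29.5% and 8.83% were called at 1, 3, 7 and 14 days. Of 8 macrophage markers with a probe, all of them above background on some arrays, 7, 8, 7 and 7 were tested at those times. Of these, 0 were called at 1 day, 3 lower at 3 days, 4 lower at 7 days and 0 at 14 days. The log2 ratio of their summed signal ranged from −0.30 to −0.01 at 1 day, −0.39 to −0.30 at 3 days, −0.44 to −0.33 at 7 days and −0.18 to 0.20 at 14 days. Of 9 hepatocyte markers, 5 were called higher and 1 lower at 7 days, with *Alb*, encoding albumin, at 0.41. At 3 days 2 were higher and 1 lower, and 0 were called at 1 day or among the 7 tested at 14 days. The log2 ratio of the hepatocyte sum ranged from −0.12 to 0.06 at 1 day, −0.07 to 0.12 at 3 days, 0.01 to 0.21 at 7 days and −0.06 to −0.03 at 14 days. The part of these markers in the *Apoe* ratio was not tested. Of the other marker lists, 2 of 5 endothelial genes were called higher and 1 lower at 3 days, 1 and 1 at 7 days, and 0 and 1 at 14 days. Of 5 stellate genes, 5, 4, 5 and 3 were tested at 1, 3, 7 and 14 days, and 2 were lower at 3 and at 7 days. Of 4 bile duct genes, 3, 2, 2 and 2 were tested at those times, and none was called. Of 5 fat cell genes, 3 (*Adipoq*, *Plin1* and *Lep*) were not above background on any array and *Cfd* was lower at 7 days (−2.42). Of 7 acinar genes 3 were tested, and 1 was lower at 3 days. Of 6 blood genes 5 were tested, and *Alas2* was lower at 3, 7 and 14 days. Of 5 lymphoid genes only *Cd3e* was tested, and it was higher at 3 days and lower at 14 days. In these bulk samples fewer cells of a type and less RNA per cell cannot be told apart.

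*Apoc1*, the gene next to *Apoe*, encodes a small apolipoprotein of the same particles. Its mean log2 ratio was 0.23 at 1 day, 0.25 at 3 days and 0.22 at 7 days, with adjusted P values of 0.025, 0.0081 and 0.011, and it was not called at 14 days. Over all tested probes, 5.15%, 12.3% and 15.3% were called higher at 1, 3 and 7 days. *Apoc4*, in the same row of genes, was called at no time.

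*Apoa1* had ratios above 0 on 8 of 9 MgH2 arrays and below 0 on all 3 H2-water arrays, though none of its means was called. Its log2 ratios were 0.27, 0.49 and 0.39 at 1 day, 0.08, 0.29 and 0.68 at 3 days, −0.15, 0.13 and 0.43 at 7 days, and −0.47, −0.21 and −0.34 at 14 days. The 3 values at 14 days lay below all 3 at 7 days, and 32.4% of tested probes separated in either direction between these groups. Within 3 and 7 days, the ratio was lowest for replicate 1, whose control pool had the highest *Apoa1* level, and highest for replicate 3, whose control pool had the lowest. At 1 day, however, replicate 2 was highest.

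The mean log2 ratio of *Apoa1* was 0.38 ± 0.12 (SE, n = 3 arrays) at 1 day, 0.35 at 3 days, 0.14 at 7 days and −0.34 at 14 days. The adjusted P values were 0.076, 0.06, 0.42 and 0.12, so none passed the test. With the replicate block over the MgH2 arrays, they were 0.015, 0.011, 0.19 and 0.025, and 3 of the 4 passed. That block leaves out the spread between control pools, so these P values are small for that reason. The 14-day arrays are not in the block but share the fit's estimate of spread. In the fit with no block and without replicate 1, the 3-day mean was 0.48 and passed (adjusted P = 0.043). The 14-day ratio differed from that at 7 days by −0.48 ± 0.17 (SE), with an adjusted P of 0.11 and, with the same block, of 0.024. The control pools differ between these groups, so the block leaves out spread that belongs to this difference. No member was called in that comparison, in which 6.61% of probes were called and 32.4% did not overlap between the groups; unadjusted, 1 member had P under 0.05. Agent, control, slide and scanner software version all differ between the groups, so their parts in the difference cannot be told apart.

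The control level of *Apoa1* was 4.55 to 5.02 on the H2-water arrays, overlapping the 4.89 to 5.32 of the MgH2 arrays. That of *Apoe* was 8.38 to 8.42 and 8.85 to 9.04, without overlap. The control levels of all the other member probes did not overlap either. They were lower on the H2-water arrays, except for *Mttp*, which was higher there. The share of all probes that separate in this way was not counted, and slide and scanner software version also differ between these arrays. The 10 spots of the *Apoa1* probe differed by an SD of 0.0144 to 0.0251 within an array. This was below the spread between arrays in every group.

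**Figure D3:**
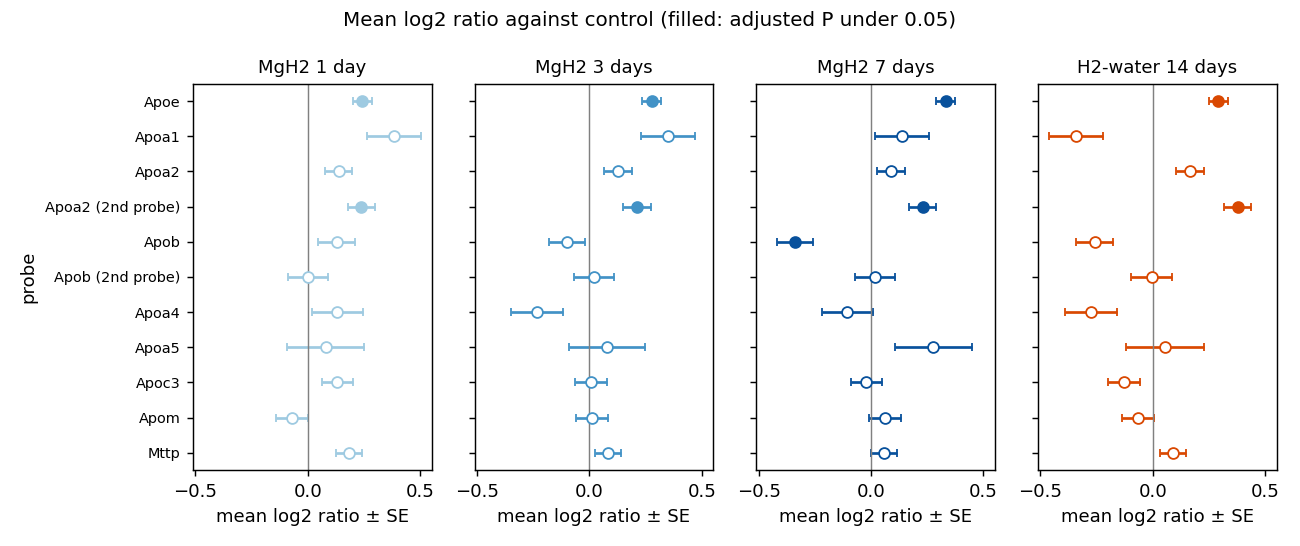
Mean log2 ratio ± SE of limma (horizontal axis) for the 11 probes (vertical axis) in each of the 4 groups of 3 arrays; filled points had an adjusted P under 0.05. Filled points are *Apoe* and the second probe of *Apoa2* at all 4 times and the first probe of *Apob* at 7 days (−0.34).

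Apolipoprotein A-II is the other abundant protein of high-density lipoprotein, and *Apoa2* was measured by a pair of probes for the same RefSeq record. The brighter probe had log2 ratios of 0.27, 0.04 and 0.09 at 1 day, 0.24, 0.07 and 0.07 at 3 days, 0.22, −0.06 and 0.11 at 7 days, and 0.22, 0.16 and 0.11 at 14 days. Its second probe had 0.40, 0.12 and 0.19, then 0.29, 0.17 and 0.19, then 0.37, 0.10 and 0.22, and 0.44, 0.37 and 0.32. The second probe was higher on all 12 arrays, by 0.05 to 0.22, and by most at 14 days.

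By the rule that the brighter probe represents a gene, *Apoa2* was not called at any time. Its means were 0.14, 0.13, 0.09 and 0.16 at 1, 3, 7 and 14 days, with adjusted P values of 0.19, 0.16, 0.31 and 0.14. With the MgH2 replicate block, which leaves out the spread between control pools, these were 0.029, 0.023, 0.069 and 0.017. The second probe was called higher at all 4 times, with means of 0.24, 0.21, 0.23 and 0.38 and adjusted P values of 0.038, 0.032, 0.019 and 0.0062. Its call was lost without any 1 array at 1 day (adjusted P of 0.074 to 0.2) and at 3 days (0.085 to 0.15), without replicate 1 or 3 at 7 days (0.14 and 0.076) and without replicate 1 at 14 days (0.058). It was also lost at 1 and 3 days when each channel was divided by its total (0.069 and 0.067) or dim probes were kept (0.11 and 0.1), and at 1, 3 and 7 days with only the arrays compared (0.24, 0.1 and 0.1). Both probes belong to the brightest class described for *Apoe*. There 31, 34, 35 and 20 of the 94 probes exceeded the first probe, and 18, 20, 19 and 2 the second. With normexp and loess the first probe was at 0.40 to 0.43 at the 4 times and was called at each.

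*Apob* encodes the structural protein of very-low-density lipoprotein, and its probes disagreed. The brighter probe had log2 ratios of 0.27, 0.13 and −0.01 at 1 day, 0.02, 0.02 and −0.34 at 3 days, −0.28, −0.36 and −0.38 at 7 days, and −0.36, −0.07 and −0.34 at 14 days. The 3 arrays at 7 days lay below all 3 at 1 day, which 28.5% of tested probes did in either direction.

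The second probe of *Apob* had 0.11, 0.04 and −0.15 at 1 day, 0.14, 0.16 and −0.24 at 3 days, 0.11, 0.11 and −0.18 at 7 days, and −0.08, 0.14 and −0.08 at 14 days. Replicate 3 was its lowest MgH2 array on each day, and the 3 days overlapped. The first probe exceeded the second on all 3 arrays at 1 day and lay below it on the other 9 arrays. The gap was 0.09 to 0.16 at 1 day, 0.10 to 0.14 at 3 days, 0.20 to 0.47 at 7 days and 0.22 to 0.28 at 14 days.

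The first probe of *Apob* was called lower at 7 days, at −0.34 ± 0.081 (SE, n = 3 arrays; 0.791-fold; adjusted P = 0.012). At 1, 3 and 14 days its means were 0.13, −0.10 and −0.26, with adjusted P values of 0.36, 0.41 and 0.083. At 14 days the adjusted P was 0.033 with the MgH2 replicate block, in which these arrays are not included. The means of the second probe were 0.00, 0.02, 0.02 and −0.01 with adjusted P values of 0.89 to 0.99. The mean of both probes was not called at 7 days, when it was −0.16. Without replicate 2 or replicate 3 of 7 days the call of the first probe was also lost (adjusted P of 0.055 and 0.069).

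Between 7 days and 1 day, the first probe of *Apob* differed by −0.47 ± 0.11 (SE), with an adjusted P of 0.039. It was the 1 member called in that comparison, beside 6.95% of all probes. The second probe differed by 0.01, with an adjusted P of 0.96. In the treated channel alone, where 3787 of all probes were called beside 1332 by the ratio, the first probe differed by −0.41 (adjusted P = 0.015). With the replicate number as a block, the adjusted P of the first probe was 0.02 and that of the second was 0.91. The call of the first probe was lost with the mean of both probes (−0.23, adjusted P = 0.27), without the filter on dim probes (0.12), with only the arrays compared (0.061) and without any 1 of the 6 arrays (0.053 to 0.12). No slide held both of these groups. On the slide that held 3 arrays of 1 day and 1 of 3 days, 3 days differed from 1 day by −0.11 in the first probe. In the second probe that difference was 0.14. On the slide with 2 arrays each of 3 and 7 days, 7 days differed from 3 days by −0.16 in the first probe and 0.15 in the second.

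**Figure D4:**
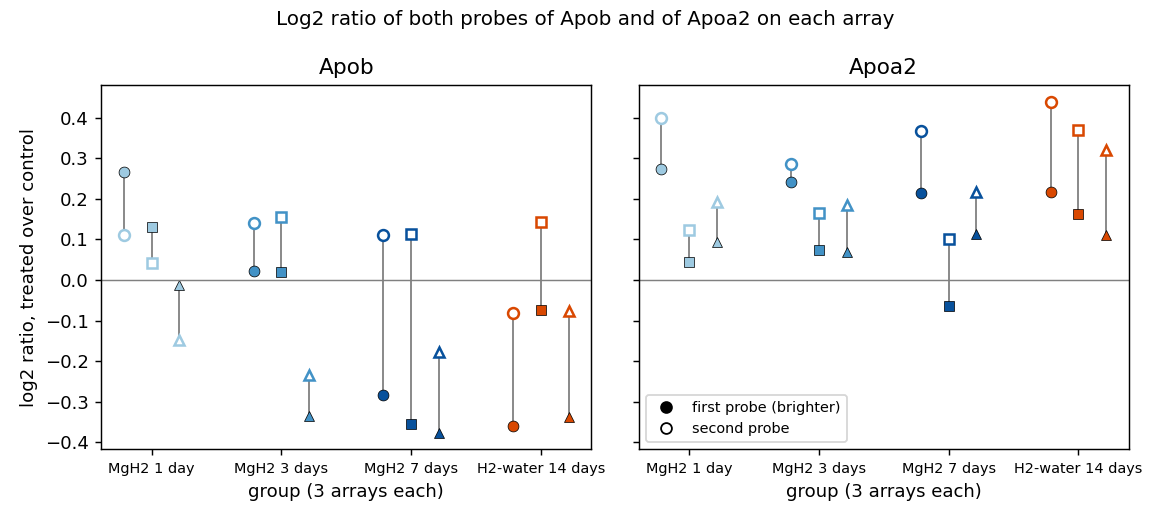
Log2 ratio (vertical axis) of the brighter (filled) and second (open) probe of *Apob* and of *Apoa2* on each array, by group (horizontal axis) and replicate number (symbol); a line joins the probes of an array. The filled *Apob* points fall below the open ones by 0.20 to 0.47 at 7 days, and the open *Apoa2* points are above the filled ones on all 12 arrays.

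*Mttp*, whose protein lipidates apolipoprotein B, differed little from control. Its log2 ratios were 0.16, 0.13 and 0.26 at 1 day, 0.12, −0.05 and 0.18 at 3 days, 0.15, −0.06 and 0.08 at 7 days, and 0.06, 0.21 and 0.01 at 14 days. All 3 arrays at 1 day and at 14 days were above 0. The 1-day mean was 0.18 ± 0.058 (SE, n = 3 arrays), with an adjusted P of 0.077. With the MgH2 replicate block, which leaves out the spread between control pools, the adjusted P was 0.028. Later means were 0.08, 0.06 and 0.09, and none passed the test.

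Apolipoprotein A-IV is secreted mainly by the intestine and, in mice, also by the liver. The log2 ratios of *Apoa4* were 0.28, −0.13 and 0.25 at 1 day, 0.01, −0.49 and −0.22 at 3 days, 0.01, −0.28 and −0.04 at 7 days, and −0.53, −0.10 and −0.20 at 14 days. Replicate 2 was lowest on each MgH2 day, and its control pool held the highest control level, 2.58 to 2.62, against 2.06 to 2.16 for the other numbers. The means were 0.13, −0.23, −0.11 and −0.27, with adjusted P values of 0.51, 0.17, 0.52 and 0.18. With the MgH2 block, which leaves out the spread between control pools, the 3-day and 14-day values had adjusted P values of 0.042 and 0.044. In the treated channel alone *Apoa4* differed by −0.40 between 3 days and 1 day (adjusted P = 0.034), where the ratio gave −0.37 (adjusted P = 0.31). Over all probes, 776 were called in that channel alone, beside 4 by the ratio. Of 7 enterocyte markers with a probe, 5 were not above background on any array, and *Fabp2* alone was above background on all and was lower at 7 days (−0.36).

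Apolipoprotein A-V promotes and apolipoprotein C-III inhibits the removal of triglyceride by lipoprotein lipase. *Apoa5* had log2 ratios of 0.35, −0.17 and 0.06 at 1 day, 0.33, −0.37 and 0.27 at 3 days, 0.31, 0.04 and 0.48 at 7 days, and 0.07, 0.46 and −0.36 at 14 days. No other member spread as widely at 14 days, and its means of 0.08, 0.08, 0.28 and 0.05 had adjusted P values of 0.25 to 0.89. *Apoc3* had 0.32, 0.02 and 0.05 at 1 day, 0.18, −0.11 and −0.05 at 3 days, 0.07, −0.04 and −0.10 at 7 days, and −0.13, −0.05 and −0.21 at 14 days. It was above 0 on all arrays at 1 day and below 0 on all at 14 days. Its means of 0.13, 0.01, −0.02 and −0.13 had adjusted P values of 0.27 to 0.96. *Apoc3* is also of the brightest class, and with normexp and loess it was at 0.34, 0.24, 0.20 and 0.04, called at the 3 MgH2 times. Under that setting 36, 62, 57 and 64 of the 94 probes exceeded it.

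Apolipoprotein M carries sphingosine-1-phosphate on high-density lipoprotein. The log2 ratios of *Apom* were −0.17, 0.07 and −0.11 at 1 day, −0.17, 0.08 and 0.13 at 3 days, −0.11, 0.14 and 0.15 at 7 days, and 0.00, −0.11 and −0.08 at 14 days. The means stayed between −0.07 and 0.06, with adjusted P values of 0.55 to 0.92.

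Among the contrasts between times, no member was called between 3 days and 1 day, in which 0.0208% of all probes were called and 1 member had an unadjusted P under 0.05. Between 7 and 3 days 0 members were called, 0% of all probes were called, and 0 members had an unadjusted P under 0.05.

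Other genes that act on the same particles were counted in lists written from general knowledge, with earlier results of these data known. Over all tested probes, 5.15% were called higher and 4.23% lower at 1 day, 12.3% and 11.1% at 3 days, 15.3% and 14.2% at 7 days, and 4.92% and 3.9% at 14 days. Of 13 other apolipoprotein genes, 13, 12, 13 and 12 were tested at 1, 3, 7 and 14 days. At 1 day 1 was called higher and 0 lower, 2 and 2 at 3 days, 2 and 2 at 7 days, and 1 and 1 at 14 days. The medians were −0.07, −0.12, −0.07 and −0.04. *Apoh*, encoding beta-2-glycoprotein I, was higher at 3, 7 and 14 days (0.15, 0.19 and 0.17). *Clu*, the gene of apolipoprotein J, was lower at the same times (−0.17, −0.16 and −0.19), and *Apol9a* was lower at 3 and 7 days (−0.37 and −0.31).

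Of 27 genes of assembly and secretion, 27, 26, 26 and 26 were tested. At 1 day 4 were called higher and 2 lower, 2 and 8 at 3 days, 3 and 4 at 7 days, and 4 and 1 at 14 days. Medians were −0.01, −0.09, −0.05 and 0.01. *Sec24a* and *Sec24c*, which encode cargo-binding subunits of the COPII coat of secretory vesicles, went opposite ways. *Sec24a* was called higher at all 4 times (0.23, 0.24, 0.27 and 0.29). *Sec24c* was lower at 3 and 7 days (−0.39 and −0.52) and not called at 1 or 14 days. *Tm6sf2*, needed for full lipidation of very-low-density lipoprotein, was lower at 1 day (−0.33). *Cideb*, which acts in the same step, was lower at 1, 3 and 7 days (−0.20, −0.25 and −0.25). *Ces3a*, a carboxylesterase, was higher at 1 day (0.43). At 3 days *Lpcat3*, an enzyme of phospholipid remodelling, was at −0.38 and *Pdia4*, a folding enzyme of the endoplasmic reticulum, at −0.36, both called. *Lman1*, a cargo receptor of the early secretory pathway, was lower at 3, 7 and 14 days (−0.26, −0.28 and −0.22). *Aadac*, a lipid hydrolase, was lower at 3 and 7 days (−0.20 and −0.28). Also serving COPII export, *Sar1a* was higher at 1 and 14 days (0.16 and 0.21) and *Mia2* at 7 and 14 days (0.18 and 0.21).

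Of 22 genes of remodelling, efflux and uptake, 21 were tested. At 1 day 1 was called higher and 0 lower, 2 and 3 at 3 days, 4 and 5 at 7 days, and 1 and 0 at 14 days. The medians were −0.04, −0.08, −0.06 and 0.03. *Angptl4*, an inhibitor of lipoprotein lipase, was higher at 3 and 7 days (0.50 and 0.59), as was *Scarb1*, the receptor for high-density lipoprotein (0.31 and 0.32). *Pdzk1*, which holds that receptor at the cell surface, was lower at 3 and 7 days (−0.27 and −0.24), and *Abcg1*, a cholesterol exporter, at 7 days (−0.36). *Abcg8*, part of the sterol exporter of bile, was higher at 1 day (0.22), and *Lpl*, encoding lipoprotein lipase, at 14 days (0.48).

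All 21 regulator genes were tested. At 1 day 1 was called higher and 1 lower, 2 and 4 at 3 days, 2 and 6 at 7 days, and 2 and 2 at 14 days. The medians were 0.06, −0.06, −0.05 and −0.01. *Srebf1*, which encodes a transcription factor of lipogenesis, was lower at 3 and 7 days (−0.60 and −0.86) and *Cebpa*, encoding a liver-enriched transcription factor, at all 4 times (−0.30, −0.48, −0.50 and −0.23), as 0.891% of probes were. *Ppargc1a*, the coactivator gene the study followed, was higher at 3 and 7 days (0.58 and 0.77). *Mlxipl*, encoding a glucose-responsive factor, was higher at 1 day (0.33), lower at 3 and 7 days (−0.33 and −0.42) and higher at 14 days (0.40). *Nr0b2*, a nuclear receptor gene that represses bile acid synthesis, was lower at 7 days (−0.55). *Hnf4a*, encoding a hepatocyte nuclear factor, was lower at 14 days (−0.22).

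The probes whose ratios most resembled the mean of the 9 genes over the 12 arrays were those of *Sdsl* (Pearson r = 0.91), *Olfr544* (0.872), *Rpl26* (0.864), *Tnfsf12* (0.859) and *Gt(ROSA)26Sor* (0.859), of 14673 candidates. The arrays share control pools and dye orientation, so these r are descriptions.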

How the data were processed

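Liver RNA of db/db mice was hybridized on 12 two-color Agilent arrays, with control in Cy3 and treated in Cy5. The intensity values deposited by the authors had been background-corrected and dye-normalized within each array by Feature Extraction (10.7.3.1 for 14 days and 10.10.1.1 otherwise, per the file headers). The deposited log10 ratios, and the log2 values of the deposited table made from them, were used as an alternative, and the authors' p-values of single arrays were not used. The labels and a legend of the study give 0.9 mg/kg of MgH2 for these days, while its methods section gives higher doses.

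Here, log2 of Cy5 over Cy3 processed intensity was taken, without scaling between arrays. Of 43020 non-control spots, those marked non-uniform or outlying were left out, and the spots of a probe were averaged. A gene is represented by its probe of highest mean signal. All 12 arrays were fitted together in limma 3.58.1 (R 4.3.3) with a mean per group, two-sided, over probes well above background in Cy3 and Cy5 on every array of a comparison, with Benjamini-Hochberg adjustment over those probes and a threshold of 0.05. Errors are limma's SE. Pools are from separate mice by the study's methods, and the number of arrays, 3 per group, limits the precision. The fit was tested on simulated data.

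Deviations from the group means correlated within a replicate number for 1, 3 and 7 days (r from 0.368 to 0.655 in 9 pairs), so the numbers pair these arrays. With 14 days r was −0.041 to 0.287. The labels do not state a shared control. A fit with the block leaves out the spread between the 3 control pools. Its P values for a ratio against 0, or for a difference from 14 days, are small for that reason.

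The members and lists were chosen with earlier results of these data known. All members are named whatever their values, and from each pathway list at most 4 called genes per comparison, by size. A gene so named is given at each treatment time at which it was called, also where it is not among the 4. Some genes that this rule gives are not reported here. Marker lists covered hepatocytes, enterocytes, macrophages, endothelial, stellate, bile duct, fat, acinar, blood and lymphoid cells. The symbols *Tf*, *Si* and *Cd68* matched no probe. Symbols came from RefSeq records (67.9% of probes matched). Alternatives are given in the closing section.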

Additional observations from a re-analysis of the deposited data

Results flagged for a closer look

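The difference of *Apob* between 7 days and 1 day, −0.466 on the log2 scale, passed the test of the difference itself between time points, with ratios below those of 1 day on 3 of 3 arrays. The second probe of the same gene differed by 0.01 over the same arrays. Leaving out any one of the 6 arrays gave −0.54 to −0.40 with adjusted P values of 0.053 to 0.12.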

How the results depend on the processing

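At 1 day (1 called) the number of the 9 genes called was 4 with normexp and loess, 0 with only the arrays compared, 3 with the replicate block, 4 with the replicate block over the MgH2 arrays, 3 with the slide as a random block, and 2 or 0 by the methods' t-test before or after adjustment. Over all probes the main fit called 1846, and these settings, in that order, called 1940, 101, 2967, 3588, 3032, 2852 and 102. At 3 days (1 called) the same settings gave 3, 0, 3, 4 and 2 of the 9 genes, and the adjusted t-test 0. Over all probes the main fit called 4542, and these settings called 3997, 292, 5940, 6571, 5152 and 1. At 7 days (2 called) normexp and loess gave 4, the mean of the probes of a gene 1 and the adjusted t-test 0. Over all probes the main fit called 5747, normexp and loess 5342 and the adjusted t-test 0. At 14 days (1 called) the mean of the probes, normexp and loess and the slide each gave 2, the replicate block 4, the block over the MgH2 arrays 5 and the adjusted t-test 0. Over all probes the main fit called 1803, normexp and loess 2599 and the slide 2611. The replicate block called 2804, the block over the MgH2 arrays 3391 and the adjusted t-test 0. Between 14 and 7 days (0 called) both blocks gave 1, with 1235 of all probes called in the main fit and 2490 and 3036 with the blocks. Between 7 days and 1 day (1 called) the number of the 9 genes called was 0 with the mean of the probes, without the filter on dim probes or with only the arrays compared, and 4 in the treated channel alone. Over all probes the main fit called 1332. It was 109 without the filter, 184 with only the arrays compared and 3787 in the treated channel alone. Between 3 days and 1 day (0 called) the treated channel alone gave 1, with 776 of all probes called, beside 4 in the main fit. Leaving out 1 array gave 0 to 1 at 1 day (0 without replicate 1), 1 to 2 at 3 days (2 without replicate 1), 1 to 2 at 7 days (1 without replicate 2 or 3), 1 at 14 days and 0 in each difference between times. Over all probes, 411 to 769 were then called at 1 day and 2063 to 2949 at 3 days. It was 3085 to 4002 at 7 days and 448 to 573 at 14 days. Past the threshold, 2 values changed direction. *Apoc3* at 7 days was 0.20 with normexp and loess (adjusted P = 0.021), and the second *Apoa2* probe between 7 days and 1 day was 0.19 in the treated channel alone (adjusted P = 0.03). The cause was not tested in either. Dividing each channel by its total, centring each array, keeping marked spots and the deposited table moved no count by over 1.5 times. Beyond the counts, 1388 single values kept direction and side of the threshold, 37 came to pass it and 42 no longer did. The block over the MgH2 arrays and the treated channel alone were chosen after seeing the data.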
